A study of Rattus norvegicus with 31 samples.

Results

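The potassium channel genes of the rat left ventricle were taken as all genes of the RefSeq table whose symbol starts with Kcn followed by letters, a number and at most 1 more letter, and whose mean over the 21 recombinant inbred strains was above 4 on the deposited log2 scale. Of 71 such symbols 45 passed this level, out of 19100 genes in the table, of which 14929 passed it. The 3 genes just inside the limit were Kcnq5 (mean 4.23), Kcnc2 (4.27) and Kcne2 (4.57), and the 3 just outside were Kcnk1 (3.89), Kcna3 (3.79) and Kcne3 (3.78). Kcnma1, the pore-forming subunit of the large-conductance calcium-activated channel, had a mean of 2.95 and was left out.

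Total RNA depleted of ribosomal RNA was sequenced from the left ventricle of untreated rats of the HXB/BXH panel, in 31 libraries. The progenitors were SHR/OlaIpcv, a spontaneously hypertensive strain, and BN-Lx/Cub, a congenic strain on the Brown Norway background, and each had 4 animals in sequencing batch 1 (8 libraries). SHR replicate 4 was sequenced again in batches 2 and 3, which makes 6 SHR libraries. The HXB family (12 strains, 3 in batch 2 and 9 in batch 3) and the BXH family (9 strains, 3 in batch 2 and 6 in batch 3) are inbred mosaics of both progenitor genomes from reciprocal crosses, with 1 library per strain. The labels state neither age, sex nor time of collection, and do not say whether animals of a strain were littermates, and p-values cover the spread of the sampled animals or strains alone. Without read counts among the deposited values the depth of a library is unknown, and counting intervals are left out. The RefSeq table used here held the 21 strains and the later libraries of SHR replicate 4, and the table of genes assembled from the reads held both progenitors, so the progenitors were compared in the assembled table and the strains in the RefSeq table. Of the 45 genes 38 had an assembled gene of their own name among 46063. Kcnj14, Kcnk6 and Kcna5 matched no assembled gene, and Kcnip2, Kcnd1, Kcng4 and Kcnip3 shared theirs with other genes (Armh3 and Ldb1, Gripap1, Cotl1 and Meak7, and Prom2).

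Potassium channels let potassium leave the cell and so end the action potential and hold the resting potential of the cardiac myocyte. Voltage-gated channels carry the transient outward and delayed rectifier currents of repolarization, inward rectifiers set the resting potential and couple it to acetylcholine and to the energy state of the cell, tandem-pore channels carry background current, and calcium- and sodium-activated channels respond to these ions inside the cell. In the rat ventricle the transient outward current, carried by Kcnd2 and Kcnd3 with the subunit Kcnip2, is the leading repolarizing current.

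Promoters from 250 bases before to 50 bases after the transcription start were matched by symbol for 31 of the 45 genes (34 promoters, RefSeq, build GRCr8, which is not the rn7 build of the expression files). Those of Kcnd2 and Kcnip2, which varied in opposite directions across strains, are shown 5′ to 3′. Those of Kcna4 and Kcnt2 are shown as well, since a mixture model fitted their strain levels best with more than 1 group. The gains in fit were small and are given below. Capitals mark the GC box GGGCGG or its reverse complement CCGCCC. The promoter of Kcnd2 lies at chr4:50742235-50742534 on the plus strand, that of Kcnip2 at chr1:254613849-254614148 on the minus strand, that of Kcna4 at chr3:114215086-114215385 on the plus strand and that of Kcnt2 at chr13:54215057-54215356 on the plus strand.
Kcnd2: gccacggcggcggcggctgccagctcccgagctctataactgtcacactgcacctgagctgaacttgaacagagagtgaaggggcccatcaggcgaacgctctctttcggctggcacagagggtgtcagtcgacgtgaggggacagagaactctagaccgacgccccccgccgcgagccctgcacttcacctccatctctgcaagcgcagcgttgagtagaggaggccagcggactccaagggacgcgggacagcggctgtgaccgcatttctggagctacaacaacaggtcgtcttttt
Kcnip2: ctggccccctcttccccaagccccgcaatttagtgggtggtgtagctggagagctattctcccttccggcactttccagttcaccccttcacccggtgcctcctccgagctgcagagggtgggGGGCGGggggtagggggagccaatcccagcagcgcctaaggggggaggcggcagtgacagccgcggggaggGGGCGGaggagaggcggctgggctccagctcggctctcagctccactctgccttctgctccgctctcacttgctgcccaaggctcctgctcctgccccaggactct
Kcna4: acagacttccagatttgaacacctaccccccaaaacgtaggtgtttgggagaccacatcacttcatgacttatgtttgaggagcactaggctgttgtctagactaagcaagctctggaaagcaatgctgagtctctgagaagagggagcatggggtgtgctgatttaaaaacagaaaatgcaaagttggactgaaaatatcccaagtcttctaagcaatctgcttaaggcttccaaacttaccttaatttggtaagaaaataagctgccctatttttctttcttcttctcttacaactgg
Kcnt2: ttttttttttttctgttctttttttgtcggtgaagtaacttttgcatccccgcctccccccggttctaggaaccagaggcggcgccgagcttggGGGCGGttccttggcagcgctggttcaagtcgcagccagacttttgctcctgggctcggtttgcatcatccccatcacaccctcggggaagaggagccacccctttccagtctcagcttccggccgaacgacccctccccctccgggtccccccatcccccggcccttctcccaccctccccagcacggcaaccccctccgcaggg
The promoter of Kcnip2 held 2 GC boxes, that of Kcnt2 held 1 and those of Kcnd2 and Kcna4 held 0. Base composition differed, with 41.7% G and C in Kcna4 and 61.7% to 67.7% in the other 3.

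Searched on both strands, GGGCGG was found in 16 of the 34 promoters (47.1%) and in 33.1% of all 33469 promoters of the same length. The E-box CACGTG, which reads the same on both strands, was in 5.88% against 6.42%. The motif AGATAA of GATA factors was in 14.7% against 11.6%. The motif TATAAA was in 0 of 34 against 14.2%. None of these motifs contains another. The median share of G and C was 59.2% for the potassium channel genes and 51.7% for all promoters. These counts describe letters in these windows and do not mark binding sites.

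**Figure D1:**
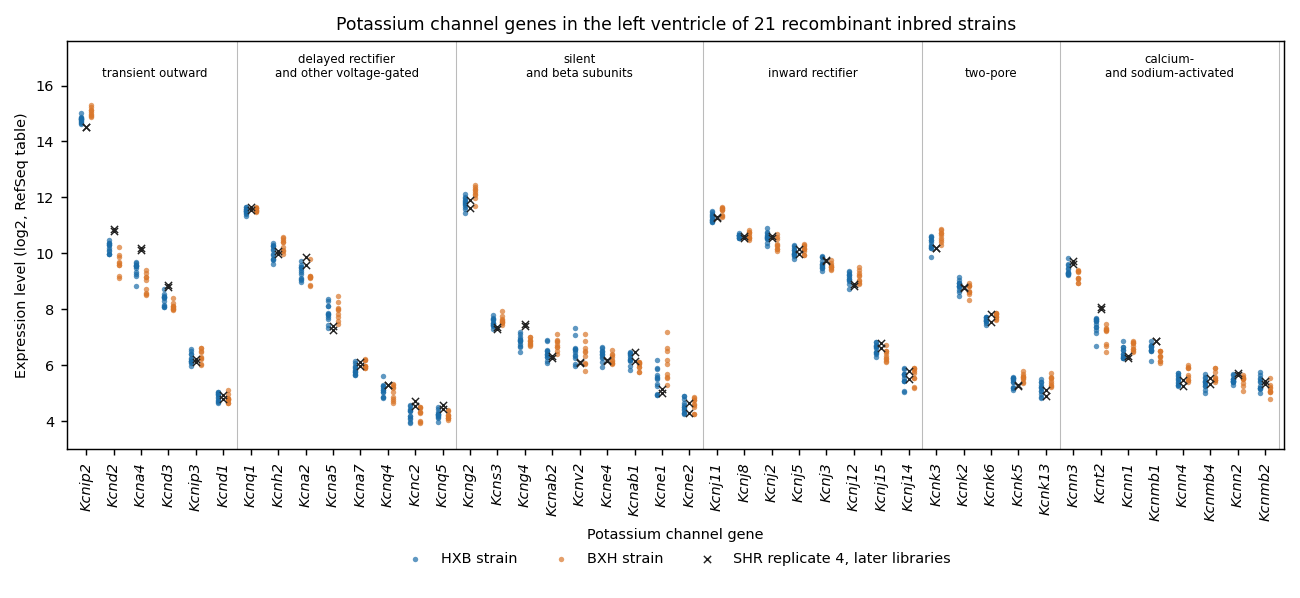
Expression level (log2, RefSeq table, not divided by length) of 44 of the 45 potassium channel genes by role, with a point for each of 12 HXB and 9 BXH strains and crosses for the later libraries of SHR replicate 4. Both crosses of Kcnd2 (10.88 and 10.80) lie above every strain, and those of Kcnip2 (14.53 and 14.51) below every strain.

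In the assembled table levels could be set per kilobase of assembled exon. Among the 38 genes with their own assembled gene the highest 5 were Kcnj8 (9.10 log2 per kb) and Kcnj11 (9.02), the pore subunits of ATP-sensitive channels, Kcng2 (8.52), a silent voltage-gated subunit, Kcnk3 (8.17), an acid-sensitive tandem-pore channel, and Kcnj2 (8.07), the main inward rectifier of the ventricle. The values are means of the 8 progenitor libraries. Several assembled genes hold long stretches of exon, up to 100639 bases in Kcnd2, which lowers such a level, and Kcnip2 is not in this order because its assembled gene also holds Armh3 and Ldb1. Kcnip2 had a mean RefSeq level of 14.91 over the strains and ran from 14.64 in HXB7 to 15.32 in BXH12.

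Across the 21 strains the potassium channel genes had a median SD of 0.21 (log2, 0.087 to 0.579), against 0.189 for all RefSeq genes above the same limit. The later libraries of SHR replicate 4, 1 animal sequenced again, differed by a median of 0.0923 over the 45 genes, and in 33 of 45 genes (73.3%) the SD across strains was above the difference between these libraries in the same gene, against 83.8% of all RefSeq genes above the limit. The widest gene was Kcne1, the regulatory subunit of the slow delayed rectifier, with an SD of 0.58 and levels from 4.94 in HXB20 to 7.19 in BXH12 around a median of 5.60. Next were Kcnv2, a silent subunit (SD 0.39, from 5.80 in BXH12 to 7.35 in HXB7), Kcnd2 (0.38, from 9.11 in BXH10 to 10.49 in HXB20) and Kcna4, a rapidly inactivating channel (0.38, from 8.53 in BXH10 to 9.68 in HXB17). Kcnt2, the sodium-activated channel Slick, had an SD of 0.35 and Kcna5, of the ultrarapid delayed rectifier, of 0.31. The narrowest were Kcnj8 and Kcnq1, the pore subunit of the slow delayed rectifier, at 0.09 each. With 1 library per strain the level of a single strain has no error of its own. Neighbouring strains in these orders cannot be told apart. The difference between the SHR libraries comes from 1 animal and leaves out the spread between animals of a strain. In the assembled table the SD among the 4 animals of a progenitor was 0.36 in BN-Lx and 0.62 in SHR for Kcne1. For Kcnv2 it was 0.57 in BN-Lx and 0.22 in SHR.

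The SHR and BN-Lx comparison asked how the parents of the panel differ. Of the 38 genes 5 passed the limma test (adjusted p under 0.05 over all assembled genes), all 5 higher in SHR and 0 lower. The 5 include the assembled gene named Kcnmb1, whose values cannot be taken for those of the RefSeq gene Kcnmb1, as given below. The share of 13.2% stood beside a background of 22.1% over 10720 symbols above the same level with an assembled gene of their own (12.2% higher and 9.91% lower), and is not a result about the potassium channel genes. Their median log2 difference was 0.11, against 0.03 in the background, and 11 of the 38 had an unadjusted p under 0.05, 8 higher and 3 lower. The ranges of the strains did not overlap in 9 of 38, where the background was 30.9%. The count was 7 when only genes with a mean over 4 were tested, and 3 without BN-Lx replicate 1, BN-Lx replicate 2, SHR replicate 3 or SHR replicate 4.

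Kcnt2 (chromosome 13, 51664118 to 52059209, build rn7) was 8.63, 8.15, 8.60 and 8.22 in the 4 BN-Lx animals and 9.18, 9.26, 9.31 and 9.26 in the 4 SHR animals. All SHR animals were above all BN-Lx animals, and the difference was 0.86 (SE 0.12, limma adjusted p = 0.000458). Kcnk2, a stretch- and lipid-sensitive tandem-pore channel on the same chromosome (100766100 to 100963435), was 8.53, 8.41, 8.56 and 8.37 in BN-Lx and 8.98, 8.92, 8.93 and 8.86 in SHR. Its ranges did not overlap either, and it was higher by 0.46 (SE 0.09, limma adjusted p = 0.00503). Kcnt2 and Kcnk2 passed without any single library and lost the call, among the alternatives run, with the spike-in level as a covariate (differences of 0.65 and 0.36, limma adjusted p = 0.0754 and 0.190).

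Kcnh2, the pore subunit of the rapid delayed rectifier (chromosome 4, 10826834 to 10859009), was 9.64, 9.83, 9.64 and 9.74 in BN-Lx and 10.19, 10.03, 10.01 and 10.39 in SHR. Every SHR animal was higher, by 0.44 on average (SE 0.10, limma adjusted p = 0.00995). The call was lost, at the same difference of 0.44, in the fit of all libraries with a batch term (0.117) and without the intensity trend (0.0684), and at a difference of 0.55 with the spike-in covariate (0.0796). Kcnj5, a subunit of the acetylcholine-activated inward rectifier (chromosome 8, 30718933 to 30753083), was 10.51, 10.42, 10.43 and 10.58 in BN-Lx and 10.61, 10.83, 10.82 and 10.80 in SHR. Its ranges did not overlap, with SHR replicate 1 close to the highest BN-Lx animal, and the difference was 0.28 (SE 0.08, limma adjusted p = 0.0316). It lost the call without BN-Lx replicate 1, 2 or 3 (0.0543, 0.0708 and 0.0811) and without SHR replicate 2, 3 or 4 (0.0895, 0.0800 and 0.0870). It was also lost with SHR replicate 4 as the mean of its libraries (0.0601), with a batch term (0.0737), without the intensity trend (0.153), with a replicate block (0.0613) and with the spike-in covariate (0.173), while the difference stayed between 0.26 and 0.33 in all alternatives run.

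Kcnmb1, the smooth muscle beta subunit of the large-conductance calcium-activated channel, was 8.52, 8.52, 8.30 and 8.41 in BN-Lx and 8.76, 8.74, 8.72 and 8.70 in SHR, a difference of 0.29 (SE 0.09, limma adjusted p = 0.0499). The animals did not overlap, and the call was lost without any 1 of the 8 libraries (adjusted p from 0.0576 to 0.127) and in 6 of the other alternatives, at differences of 0.25 to 0.33. The assembled gene of this name (chromosome 10, 18558154 to 18689683) joins 29 exon blocks and had a Spearman rho of -0.67 with the RefSeq gene Kcnmb1 across the 21 strains, so its values cannot be taken for those of the RefSeq gene. Over the 38 genes the median of this rho was 0.90, and 35 were above 0.5.

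**Figure D2:**
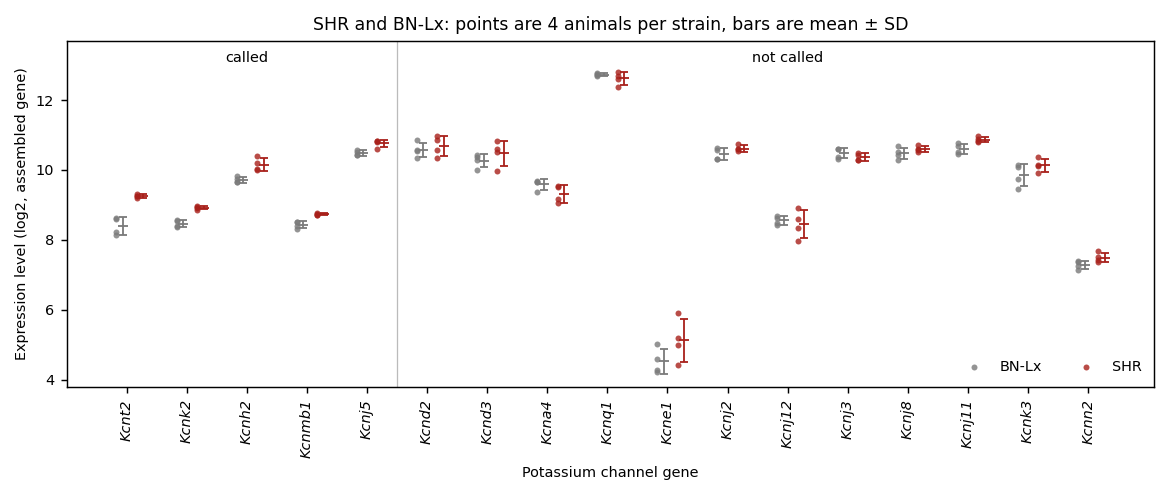
Expression level (log2, assembled gene) of 17 named potassium channel genes in BN-Lx and SHR, with a point per animal (4 of each strain) and bars of mean ± SD. The 5 called genes stand on the left, with every SHR animal above every BN-Lx animal, and the other genes on the right did not pass the test. Each is the assembled gene with the highest mean of its name, and that of Kcnmb1 had a rho of -0.67 with RefSeq Kcnmb1.

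In the assembled gene of the highest mean for each name, the channels of the transient outward and delayed rectifier currents other than Kcnh2 did not pass. For Kcnd2 that gene has 1 transcript of 2 exon blocks with 100639 exon bases, and a rho of 0.92 with RefSeq Kcnd2. The assembled Kcnd2 gene with 12 exon blocks passed (0.45, limma adjusted p = 0.00801, rho of 0.38). It is given below with others named Kcnd2, Kcnd3 and Kcna4 that passed. Kcnd2 differed by 0.12 (SE 0.14, limma adjusted p = 0.617), Kcnd3 by 0.21 (0.396), Kcna4 by -0.28 (0.162), Kcnq1 by -0.11 (0.447) and Kcne1 by 0.60 (SE 0.31, 0.225). When each library was left out in turn these values moved, from 0.02 to 0.24 for Kcnd2, 0.10 to 0.38 for Kcnd3, -0.35 to -0.19 for Kcna4, -0.18 to -0.02 for Kcnq1 and 0.34 to 0.84 for Kcne1, and none passed in limma. Kcne1 was 4.52 ± 0.36 in BN-Lx and 5.13 ± 0.62 in SHR (SD, n = 4 each), and the ranges of all these genes overlapped.

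Of the inward rectifiers, Kcnj2 and Kcnj12 of the resting potential differed by 0.15 and -0.10 (limma adjusted p = 0.297 and 0.734), Kcnj3, the partner of Kcnj5, by -0.11 (0.473) and Kcnj8 by 0.13 (0.392). Kcnj11 was 10.45, 10.67, 10.52 and 10.78 in BN-Lx and 10.98, 10.82, 10.87 and 10.80 in SHR. Its ranges did not overlap, and its difference of 0.26 did not pass (limma adjusted p = 0.0646). It passed without BN-Lx replicate 4 (0.0365) and when only genes with a mean over 4 were tested (0.0465). Kcnk3 differed by 0.29 (0.223), Kcnn2, a small-conductance calcium-activated channel, by 0.21 (0.287), and Kcnma1, below the limit, by 0.09 (SE 0.35, 0.895). Kcnmb2, a beta subunit that inactivates the large-conductance channel, had the most negative difference of the 38, -0.53 (SE 0.17, limma adjusted p = 0.0598). It was 5.78 ± 0.17 in BN-Lx and 5.25 ± 0.14 in SHR (SD, n = 4 each), without overlap. It passed when only genes with a mean over 4 were tested (0.0423) and without the intensity trend (0.0414). Kcnmb2 was picked after its values were seen.

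Kcnip2 could be read for the progenitors only in the assembled gene that it shares with Armh3 and Ldb1 (chromosome 1, 244641142 to 244890238). That gene was 14.95, 15.05, 14.88 and 15.10 in BN-Lx and 14.68, 14.53, 14.43 and 14.53 in SHR. All SHR animals were below all BN-Lx animals, by 0.45 (difference -0.45, SE 0.07, limma adjusted p = 0.0014). Across the strains it had a rho of 0.97 with the RefSeq gene Kcnip2. Of the 9 assembled transcripts that carry the name Kcnip2 alone, 7 had negative differences (-0.31 to -1.31) and 2 positive ones (0.40 and 1.16). None of these passed in limma (adjusted p from 0.0721 to 0.875), and 5 had an unadjusted p under 0.05. Kcnd1, a further transient outward subunit, shared a gene with Gripap1 that rose by 0.39 (SE 0.10, limma adjusted p = 0.0213) and had a rho of 0.17 with RefSeq Kcnd1, so the value cannot be assigned to Kcnd1.

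Several names were carried by more than 1 assembled gene, 87 in all for the 45 genes. Of these 13 were higher and 2 lower in SHR, 17.2% against 14.3% of all assembled genes (7.38% higher and 6.95% lower). Assembled genes of 1 name are not independent, and the 13 include the gene that Kcnd1 shares with Gripap1. The share is not a result about the potassium channel genes. Kcna4 had 6 assembled genes. The one with the highest mean, given above, did not pass, while 3 others on the same strand of chromosome 3 rose by 1.13 (SE 0.15, limma adjusted p = 0.000326), 1.27 (SE 0.18, 0.000505) and 0.95 (SE 0.20, 0.00751). The first of these was 7.60, 7.12, 6.80 and 7.13 in BN-Lx and 8.32, 8.32, 8.24 and 8.27 in SHR, and none of the 3 overlapped between strains.

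Kcnd2 had 12 assembled genes, of which 2 rose, by 0.45 (SE 0.10, limma adjusted p = 0.00801) and 1.34 (SE 0.34, 0.0213). Their rho with RefSeq Kcnd2 was 0.38 and 0.91. Kcnd3 had 5, of which 1 rose by 2.14 (SE 0.62, 0.0363), with overlapping ranges. That Kcnd3 gene had a mean of 3.02 in the progenitors, below 4, and a rho of 0.22 with RefSeq Kcnd3. Both assembled genes of Kcnt2 rose, the second by 0.70 (SE 0.21, 0.0396). Kcng2 had 7, of which 1 fell, from 7.18, 6.89, 7.04 and 6.86 in BN-Lx to 5.51, 5.64, 5.43 and 5.57 in SHR. Its difference was -1.46 (SE 0.14, limma adjusted p = 2.89e-05) with a rho of -0.37 with RefSeq Kcng2, while the gene of the highest mean, with a rho of 0.99, differed by 0.33 (0.0591). That gene passed with the replicate block (0.0374), without BN-Lx replicate 3 (0.0289) and without SHR replicate 2 (0.0446). The assembled genes of 1 name overlap on the genome, so reads divided among them cannot be told apart with certainty.

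**Figure D3:**
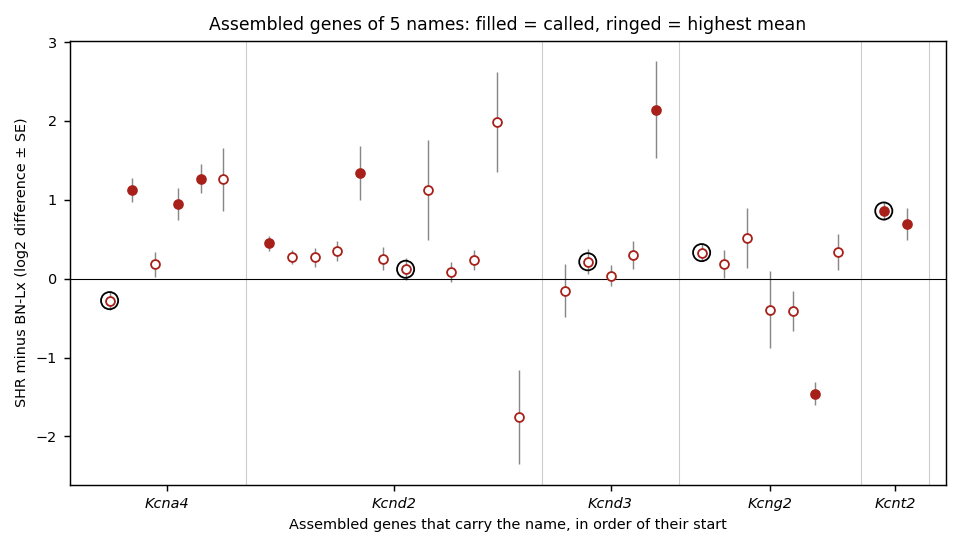
SHR minus BN-Lx (log2 difference ± SE, limma) for each assembled gene that carries the name Kcna4, Kcnd2, Kcnd3, Kcng2 or Kcnt2, in order of start. Filled points passed the test and rings mark the gene with the highest mean, which passed for Kcnt2 and not for the other 4 names.

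At the level of transcripts 190 carried a name of the list (42 genes), of which 139 had a mean over 4. In limma over 91969 transcripts 9 passed, 8 higher and 1 lower in SHR, 4.74% against 5.53% of all transcripts (2.72% higher and 2.81% lower), and 57 had an unadjusted p under 0.05. The count was 4 without BN-Lx replicate 2, BN-Lx replicate 4 or SHR replicate 4, 5 without BN-Lx replicate 3 and 3 without SHR replicate 2. The 9 belonged to 5 genes, and no gene had calls in both directions. A Kcng2 transcript of 2 exons was 7.27, 6.92, 7.12 and 6.90 in BN-Lx and 5.40, 5.54, 5.27 and 5.45 in SHR, a difference of -1.64 (SE 0.19, limma adjusted p = 0.00163), and makes up the assembled gene of that name that fell. Transcripts of Kcna4 rose by 1.29 (0.00869) and 1.40 (0.0101), and transcripts of Kcnt2 by 1.25 (0.0155) and 1.03 (0.0250), all without overlap between animals. Each of these Kcna4 transcripts is the only one of an assembled gene given above (1.13 and 1.27), so it adds no separate measure. In the Kcna4 gene of the highest mean no transcript passed, with differences that included -1.29 (0.0922), 0.21 (0.642) and 0.24 (0.686). The Kcnt2 transcript with 21 exons was 5.92, 5.22, 6.08 and 5.68 in BN-Lx and 7.07, 7.05, 6.89 and 6.89 in SHR. The other 4 called transcripts were of Kcnt2, Kcnj5 and Kcnd2 (limma adjusted p from 0.0360 to 0.0494). Those of Kcnt2 (means 2.01 and 3.67) and Kcnj5 (3.32) had means below 4 and lost the call whichever library was left out. The Kcnd2 transcript (mean 8.43) lost it in each of these fits except the one without SHR replicate 3.

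By role, the called genes were 1 of 8 delayed rectifier and other voltage-gated genes, 1 of 7 inward rectifiers, 1 of 4 tandem-pore genes, 2 of 8 calcium- and sodium-activated genes, 0 of 8 silent and beta subunits (2 with an unadjusted p under 0.05 in limma) and 0 of 3 transient outward genes (1 unadjusted). Each count is of the genes with their own assembled gene, taken at the one with the highest mean. The 2 calcium- and sodium-activated genes include that named Kcnmb1, with the rho given above. Beside the background of 22.1% none of these counts is a result about a role. The median difference was highest in the silent and beta subunits (0.28) and lowest in the calcium- and sodium-activated group (-0.02).

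The HXB and BXH families asked whether strains from reciprocal crosses of the same parents differ. With batch as a covariate 21 of 45 genes passed, 9 higher and 12 lower in HXB. The share of 46.7% was near the background of 43.9% (22.1% higher and 21.8% lower) and is not a result about these genes. Their median difference was -0.03, against -0.02 over the background, and 24 had an unadjusted p under 0.05. The ranges of the families overlapped in all 45 genes, where 0.255% of the background did not overlap. In batch 3 alone 17 genes passed, a count without a background share here and so not a result about these genes. They are not a subset of the 21. Kcnmb2, for example, passed in batch 3 alone (limma adjusted p = 0.043) and not with both batches (0.0683). Kcnab1, Kcne1, Kcnn1, Kcnmb4, Kcnt2 and Kcna7, called with both batches, did not pass in batch 3 alone.

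Spike-in RNAs, synthetic RNAs added to the sample, moved with the families. The mean of 69 of them was 6.63 to 7.01 in HXB (median 6.81) and 6.78 to 7.93 in BXH (median 7.42), and 7 of 9 BXH strains were above the highest HXB strain. With this level as a covariate 0 of 45 potassium channel genes passed in limma (2 with an unadjusted p under 0.05), and 0 of all 19100 genes (2006 unadjusted). Family and spike-in level cannot be told apart in most of these strains, and every family difference below carries that limit. Of the 21 genes called, 11 kept at least 0.5 of their difference with the spike-in level as a covariate and 10 did not. Kcne1 went from -0.60 to -0.56 and Kcnab1 from 0.27 to 0.35, while Kcna4 went from 0.50 to 0.15, Kcnh2 from -0.30 to -0.04, Kcnk3 from -0.27 to -0.05 and Kcnn3 from 0.22 to 0.0038. Between batches 3 and 2, with family as a covariate, 0 of 45 passed in limma (1 unadjusted). Over all 19100 RefSeq genes 4 passed (535 unadjusted), so this is not a result about the potassium channel genes. In the assembled table the mean of 70 spike-in RNAs was 6.95 to 7.85 in BN-Lx and 6.37 to 6.82 in SHR, without overlap. With it as a covariate 0 of 38 genes passed between the progenitors in limma (8 unadjusted), and 1849 of all assembled genes did. The differences of the 5 called genes were then 0.33 to 0.65, against 0.28 to 0.86 without the covariate.

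Of the 6 genes of the transient outward current 3 were higher and 1 lower in HXB, beside the background of 22.1% higher and 21.8% lower. Kcnd2 ran from 9.96 to 10.49 in HXB (median 10.25) and from 9.11 to 10.23 in BXH (median 9.67), and 6 of 12 HXB strains were above the highest BXH strain. The difference was 0.56 (SE 0.11, limma adjusted p = 0.000821), 0.23 (SE 0.15, 0.599) with the spike-in covariate and 0.10 (0.343) in the earlier Ensembl-based table. Kcna4 ran from 8.83 to 9.68 in HXB (median 9.56) and from 8.53 to 9.40 in BXH (median 9.04), higher in HXB by 0.50 (SE 0.12, 0.00303), with 8 HXB strains above all BXH strains. Kcnd3 was higher in HXB by 0.25 (SE 0.08, limma adjusted p = 0.016). Kcnip2 ran from 14.64 to 15.03 in HXB (median 14.80) and from 14.89 to 15.32 in BXH (median 15.07), and 11 of 12 HXB strains were below the lowest BXH strain. It was lower in HXB, with a difference of -0.28 (SE 0.06, limma adjusted p = 0.00105).

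Among the silent and beta subunits Kcng2 was lower in HXB by 0.37 (difference -0.37, SE 0.08, limma adjusted p = 0.00103), with 11.46 to 12.11 in HXB (median 11.82) and 11.69 to 12.45 in BXH (median 12.19). Kcne1 ran from 4.94 to 6.18 in HXB and from 5.28 to 7.19 in BXH, a difference of -0.60 (SE 0.21, 0.0281). Of the auxiliary beta subunits of voltage-gated channels, Kcnab1 was higher (0.27, 0.0125) and Kcnab2 lower (-0.31, 0.0204) in HXB. In the delayed rectifier group Kcnh2 (-0.30, 0.0192) and Kcna7 (-0.19, 0.0496) were lower.

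Of the inward rectifiers Kcnj2 (0.26, 0.0106) and Kcnj15 (0.25, 0.0193) were higher in HXB and Kcnj11 (-0.23, limma adjusted p = 0.00516) was lower. Kcnj11 ran from 11.11 to 11.51 in HXB and from 11.29 to 11.64 in BXH. The tandem-pore genes Kcnk13 (-0.28, 0.0123), Kcnk3 (-0.27, 0.0208) and Kcnk6 (-0.15, 0.0211) were lower. Of the calcium- and sodium-activated genes Kcnmb1 (0.27, 0.0104), Kcnt2 (0.34, 0.0481) and the small-conductance channel Kcnn3 (0.22, 0.0345) were higher, and Kcnn1 (-0.23, 0.0305) and the neuronal beta subunit Kcnmb4 (-0.24, 0.0331) were lower. All these adjusted p-values are limma's over the whole RefSeq table. Kcnmb1 turned to -0.11 in its assembled gene, with the rho given above, and Kcnn3 to -0.01 in the earlier Ensembl-based table.

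**Figure D4:**
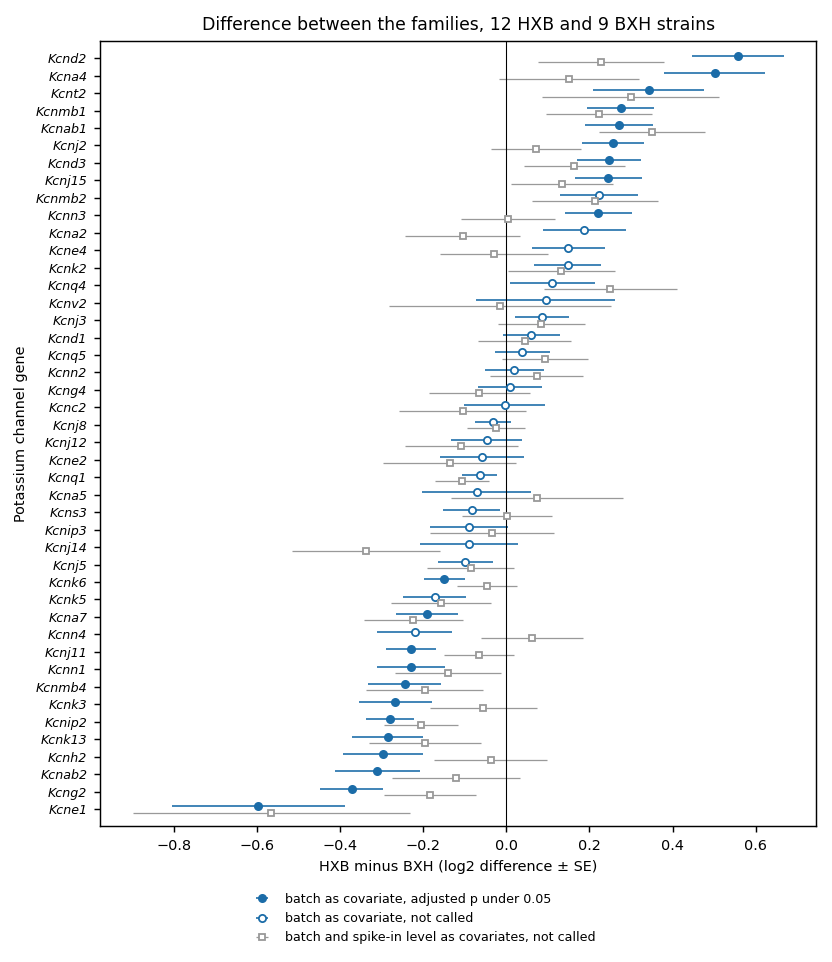
HXB minus BXH (log2 difference ± SE, limma) for 44 of the 45 potassium channel genes, with batch as covariate (blue circles, filled where adjusted p was under 0.05) and with batch and the spike-in level as covariates (grey squares). With the spike-in level 0 genes passed, and Kcnd2 moved from 0.56 to 0.23.

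SHR replicate 4 could be set beside the strains in the RefSeq table. Both of its later libraries lay outside the range of the 21 strains in 7 of 45 genes, 15.6% against a background of 18.8%. They were above all strains for Kcnd2 (10.88 and 10.80, against a highest strain of 10.49), Kcna4 (10.20 and 10.14, against 9.68), Kcnt2 (8.10 and 8.03, against 7.69), Kcnd3 (8.79 and 8.87, against 8.72), Kcng4, a silent subunit (7.39 and 7.47, against 7.21), and Kcnmb1 (6.87 and 6.87, against 6.86). They were below all strains for Kcnip2 (14.53 and 14.51, against a lowest strain of 14.64). These are libraries of 1 animal, and no BN-Lx library in this table was used for comparison.

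A mixture model of 1 to 3 components gave more than 1 mode across the strains for 7 of 45 genes, 15.6% beside a background of 12.4%, a share that is no result about these genes. Kcna4 had the largest gain in BIC (3.86, against up to 45.8 over all genes), with 5 strains around 8.64, 7 around 9.20 and 9 around 9.56, of which 1, 3 and 8 were HXB strains. Its middle group reached 9.33 and its upper group began at 9.40, while the later SHR libraries differed by 0.06 in this gene. Kcnt2 (gain 2.74) had 4 strains from 6.47 to 6.75 and 17 from 7.14 to 7.69, a gap with no strain inside, and 1 of the 4 low strains was of HXB. Kcnj3 (1.52), Kcnd3 (1.42), Kcnd1 (1.06) and Kcnc2 (0.41) followed. Only 2 of the genes had more than 1 mode in the RefSeq table and the assembled table alike.

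The last comparison asked whether subunits that form a channel vary together across the strains. Of 11 such pairs, centred within batch, 3 passed a permutation test adjusted over the pairs. Kcnd2 and Kcnip2 had r = -0.80 and rho = -0.73 (permutation adjusted p = 0.00022 and 0.00319, raw p = 2e-05 and 0.00029), Kcnd2 and Kcnd3 r = 0.64 and rho = 0.64 (0.0119 and 0.0129), and Kcnd3 and Kcnip2 r = -0.58 and rho = -0.61 (0.0247 and 0.0134). Higher levels of the pore-forming subunits went with lower levels of their accessory subunit. Without the 2 strains farthest from the median, in 19 strains, r was -0.70, 0.59 and -0.52 (permutation adjusted p = 0.01, 0.0476 and 0.0615). By rho the adjusted p was 0.0427 for Kcnd2 with Kcnip2 and 0.0594 for each of the other pairs, so Kcnd2 with Kcnip2 alone passed by both measures.

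Within families none of these 3 pairs passed the permutation test, and differences between the families were not tested. In the 12 HXB strains Kcnd2 and Kcnip2 had r = -0.16 (permutation adjusted p = 0.773), and in the 9 BXH strains r = -0.74 (exact permutation adjusted p = 0.0747, raw p = 0.0204). Kcnd2 and Kcnd3 had r = 0.41 in HXB and 0.48 in BXH, and Kcnd3 and Kcnip2 -0.18 and -0.38. With each gene taken as its residual on the spike-in level r was -0.56 (permutation adjusted p = 0.0802), and 0 of 11 pairs passed the permutation test (1 with an unadjusted p under 0.05). In batch 3 alone r was -0.83 (permutation adjusted p = 0.00077). Because both genes differed between the families, the pooled relation and the family difference cannot be told apart.

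**Figure D5:**
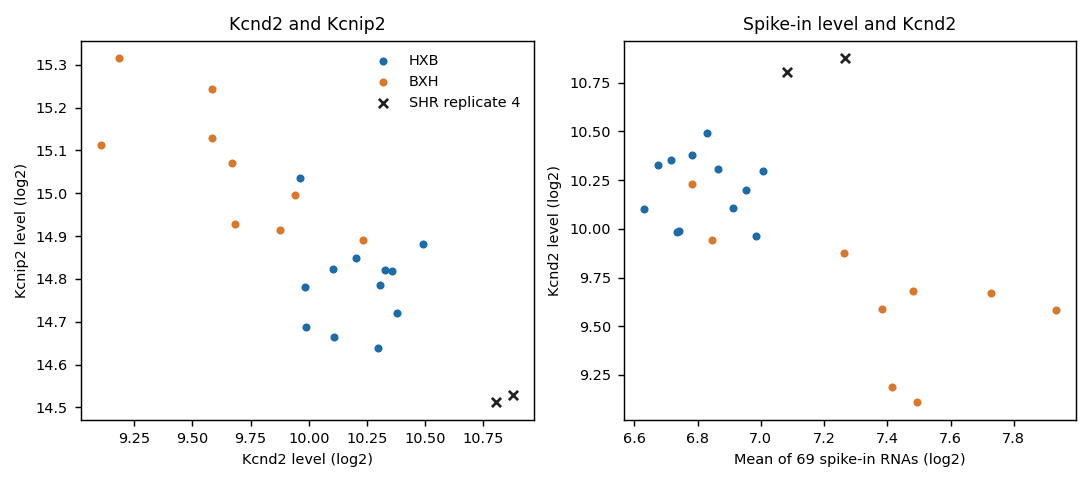
Left, Kcnip2 against Kcnd2 (log2 levels, RefSeq table) and right, Kcnd2 against the mean of 69 spike-in RNAs, with a point for each HXB and BXH strain and crosses for the later libraries of SHR replicate 4. The BXH medians lie at lower Kcnd2 (9.67, against 10.25 in HXB) and higher Kcnip2 (15.07 against 14.80) with overlapping ranges, 7 of 9 BXH strains lie above the highest HXB spike-in level, and the SHR libraries lie beyond the HXB strains on the left.

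Kcnq1 and Kcne1, which form the slow delayed rectifier, had r = 0.45 (permutation adjusted p = 0.112). The pairs Kcnj3 with Kcnj5, Kcnj2 with Kcnj12, Kcnj11 and Kcnj8 with the sulfonylurea receptor Abcc9, Kcnma1 with Kcnmb1 and Kcna5 with Kcnab1 had r from -0.31 to 0.22 and did not pass. Kcna5 with Kcnab1 passed in batch 3 alone (15 strains, r = -0.65, permutation adjusted p = 0.0338). In the BXH strains alone Kcnj3 and Kcnj5 passed by r and not by rho, with r = -0.83 and rho = -0.85 (exact permutation adjusted p = 0.0134 and 0.0668). In the HXB strains r was 0.10, and the difference between the families was not tested. In the assembled table Kcnj11 with Abcc9 (r = 0.82), Kcnj8 with Abcc9 (0.68) and Kcnd2 with Kcnd3 (0.61) passed.

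Of 26 measured accessory and regulating genes of potassium channels, pacemaker channels included, 5 were higher and 2 lower in SHR (26.9%, beside the background of 22.1%). Pias3, a SUMO ligase that also acts on channels, rose by 0.52 (SE 0.09, limma adjusted p = 0.00231) and Nedd4l, a ubiquitin ligase of channels, by 0.38 (0.00753). Irx4, a ventricular transcription factor, fell by 0.40 (0.00805). Between the families 28 were measured, 3 higher and 8 lower in HXB (39.3%, beside 43.9%). Neither share is a result about these genes. Akap9, which anchors protein kinase A at Kcnq1, was higher by 0.57 (SE 0.11, limma adjusted p = 0.00061) and Dlg1, a scaffold protein, by 0.27 (0.0026). Cav3, the muscle caveolin, was lower with a difference of -0.24 (0.000715), and so was the pacemaker channel Hcn2 with -0.38 (0.00531).

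Markers of cell types were measured in the same libraries, and none of the measured markers was at 0. Th had no value for strains or progenitors. Myh6, Pln, Mb, Tagln, Notch3, Cd68, Cd4 and Apoa1 had no value of their own for the progenitors. As a check of the tissue label, Myl2, the ventricular myosin light chain, had a mean of 18.50 over the strains, and the 6 atrial genes had means from 4.19 (Sln) to 12.90 (Nppa), with 7.57 for Myl4 and 6.63 for Myl7, the atrial myosin light chains. Over all marker lists 23 of 55 measured markers passed between SHR and BN-Lx (41.8%, beside 22.1%) and 16 of 63 between the families (25.4%, beside 43.9%). Of 6 cardiomyocyte markers 0 were higher and 2 lower in SHR, with a summed level of 20.85 to 21.14 in BN-Lx and 20.94 to 21.10 in SHR. That sum is mostly the assembled gene named Myh7 (20.14 in BN-Lx and 20.35 in SHR). Over the strains RefSeq Myh7 had a mean of 15.72 and RefSeq Myh6 of 20.40, so this assembled gene cannot be taken for Myh7 alone. Of 7 smooth muscle and pericyte markers, the cells in which Kcnmb1 and Kcnj8 are known to be expressed, 3 were higher (Acta2, Cspg4 and Pdgfrb) and 0 lower. The summed levels (15.83 to 16.11 and 15.78 to 16.06) are mostly Des, at 15.76 in BN-Lx and 15.61 in SHR, and do not show the change of the other markers. Of 6 atrial markers 1 was higher and 1 lower (12.29 to 13.29 and 12.40 to 13.57), and of 5 conduction system markers 0 were higher and 3 lower (9.70 to 9.79 and 9.39 to 9.67). Of 7 endothelial markers 4 were higher (Cdh5, Kdr, Tie1 and Eng) and 1 lower (Vwf), with a median difference of 0.34 and summed levels of 15.75 to 15.81 and 15.80 to 15.94. Of 6 fibroblast markers 1 was higher and 1 lower, of 5 macrophage markers 1 higher and 2 lower (Cd163 and Mrc1), of 5 lymphocyte markers 1 higher and of 7 Schwann cell and neuron markers 1 higher. The liver gene Alb was lower by 1.96 (difference -1.96, SE 0.58, limma adjusted p = 0.039), at 12.51 ± 1.25 in BN-Lx and 10.55 ± 1.09 in SHR (SD, n = 4 each). Between the families 1 cardiomyocyte marker was higher and 4 of 9 lower in HXB, of 9 smooth muscle and pericyte markers 2 were higher and 1 lower, of 7 endothelial markers 2 were higher and 1 lower, of 6 macrophage markers 2 were lower, and of 6 atrial and 5 conduction system markers 0 passed in limma, with an unadjusted p under 0.05 for Myl4, Hcn4 and Gja5. The part of these markers in the channel differences was not tested, and in bulk tissue fewer cells of a type and less RNA per cell cannot be told apart. How well the reads of each strain aligned to rn7, a Brown Norway assembly, was not tested.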

How the data were processed

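Left ventricle RNA was measured in 31 libraries. Per the labels, the authors used HISAT2 2.1.0 and Bowtie2 2.3.4.3, RSEM 1.3.1, StringTie 1.3.5, DESeq2 and the trimmer cutadapt 1.9.1 with build rn7, without stating the role of each. The deposited values are log2 levels per gene or transcript. They were normalized and transformed by the authors in steps not given in the sources used here, so a difference is on that log2 scale and the depth is unknown. Exon coordinates from the deposited assembly (StringTie) gave gene names, spans and exon lengths. Files of strain means and tables without BN-Lx were not used for the progenitors.

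The members and lists were chosen with earlier results of these data known. Differences were tested with limma 3.58.1 (R 4.3.3, lmFit, eBayes with an intensity trend, two-sided), without spike-in rows and with Benjamini-Hochberg adjustment over all 46063 assembled genes, 91969 transcripts or 19100 RefSeq genes, at a threshold of 0.05. Progenitor fits used the 8 libraries of batch 1, and family fits the 21 strains with batch as a covariate. A symbol was represented by the assembled gene that carried this name alone and had the highest mean. Modes were fitted with mclust 6.1.1, and 11 pairs were tested with 100000 permutations (exact under 10 strains, scipy 1.17.1 and numpy 2.4.6). The text names every gene called, the channels of the main cardiac currents whether called or not, the widest and the most separated genes across strains and the partners with the smallest p. A member and an accessory gene are counted but not reported here by name. The fits were tested on simulated data. The alternatives tried were other normalizations, filters, batch terms, gene tables, a spike-in covariate, a replicate block and leaving out each progenitor library. Libraries of a table had pairwise correlations from 0.958 to 0.998, and no libraries held identical values.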

Additional observations from a re-analysis of the deposited data

Results flagged for a closer look

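In 2 of 57 groups of 4 animals or 9 BXH strains that were examined, 1 animal stood apart from the others of its strain by Dixon's criterion, which chance alone meets in about 1 of 20 groups. Kcnj5 was 10.61 in SHR replicate 1 and 10.80 to 10.83 in the other SHR animals. Without that animal its SHR minus BN-Lx difference was 0.33 (limma adjusted p = 0.0136). The assembled Kcna4 of the highest mean was 9.36 in BN-Lx replicate 2 and 9.65 to 9.69 in the other BN-Lx animals.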

How the results depend on the processing

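Between SHR and BN-Lx the count of 5 potassium channel genes became 3 with SHR replicate 4 as the mean of its libraries, 3 in the fit of all libraries with a batch term, 3 without the intensity trend, 0 with the spike-in covariate and 15 over all assembled genes that carry a name, and it ran from 3 to 5 when each library was left out. Of transcripts, 2 passed with a replicate block and 3 to 8 when each library was left out. With the replicate block the gene count was 4. Same-numbered animals did not deviate together (correlations from -0.08 to 0.07), so the numbers do not pair the samples. With the spike-in covariate 0 genes passed between the families. The pairs that passed by r numbered 0 in HXB strains alone, 1 in BXH strains alone and 0 for residuals on the spike-in level. These settings were chosen after seeing the data, as were the Ensembl-based table and the other choices of assembled gene. The sign turned with the spike-in covariate for Kcnd2 (-0.20), Kcnj12 (0.31) and Kcnj3 (0.066) between the progenitors. It also turned for Kcnj12 when single libraries were left out (-0.25 to 0.060), and between the families for Kcnmb1 in the assembled table (-0.11) and Kcnn3 in the Ensembl-based table (-0.014). The family difference of Kcnd2 fell to 0.10 in that table. The causes were not tested. The earlier assembled table was not run, since no BN-Lx column of it was used here. With depth unknown, counting error of low genes such as Kcne1 cannot be separated from other spread.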
